A study of Mus musculus with 4 samples.

Results

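Phase II conjugation enzymes attach a polar group to drugs, dietary compounds, hormones and the cell's own waste products. Their transcripts were examined in scraped colon mucosa of mice with Vhl deleted in the intestine, with the Min mutation of Apc, or with both. The genes were taken by symbol: UDP-glucuronosyltransferases named Ugt1 or Ugt2, sulfotransferases named Sult1 to Sult6, soluble glutathione transferases (Gsta, Gstm, Gsto, Gstp, Gstk, Gstt and Gstz), microsomal glutathione transferases (Mgst) and every gene whose symbol starts with Nat. This gave 58 of the 18194 genes that the array names, through probe sets that carry a single gene symbol. Each gene was represented by the probe set whose mean over the 4 arrays was highest. Of the 58 genes, 36 came to log2 6 or more in 1 array or several, against 11871 of the 18194 genes.

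The series holds 4 Affymetrix arrays, 1 for each genotype, all from mice of the 129S6/SvEv strain at 5 weeks of age. The VhlΔIE array comes from mice with an intestine-specific Vhl knockout, and the VhlF/F array from Vhl-floxed mice. The VhlΔIE/Apcmin/+ array comes from intestine-specific Vhl-knockout mice of an intestinal tumor model that carry a Min allele of Apc, and the VhlF/F/Apcmin/+ array from Vhl-floxed mice of the same model. The design text names 3 VhlΔIE, 4 VhlF/F, 5 VhlΔIE/Apcmin/+ and 3 VhlF/F/Apcmin/+ mice. It does not say whether their RNA was pooled, and the Cre driver is not given in the sources used here. With 1 array for each genotype no difference has a replicate check, and no p-value is given. Differences are log2 values of one array minus another, so that 1 is a 2-fold difference. Vhl differences are given without Min (VhlΔIE minus VhlF/F) and with Min (VhlΔIE/Apcmin/+ minus VhlF/F/Apcmin/+).

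Glucuronidation transfers glucuronic acid from UDP-glucuronate, sulfation transfers sulfate from the donor PAPS, and glutathione transferases couple the tripeptide glutathione to electrophiles. The products are more soluble and leave the cell through export pumps. The colon epithelium meets dietary and microbial phenols, steroids and lipid aldehydes, and it expresses members of all these families. Genes that start with Nat are mixed. Nat1, Nat2 and Nat3 are the arylamine N-acetyltransferases, the Nat8 genes belong to a family known for acetylating cysteine conjugates or amines, and Nat10 modifies RNA. The Nat genes are therefore described apart from the other classes.

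Sult1a1, the phenol sulfotransferase, was the one member at least 2-fold lower with Vhl deletion in both Apc backgrounds. Sult1c2, Gstm7 and Gstt1 were at least 1.5-fold lower in both. Promoter sequences of these 4 genes are shown because they were the members at least 1.5-fold lower in both backgrounds. They are from RefSeq, written 5′ to 3′ on the strand of the gene, from 250 bases before to 50 bases after an annotated start. Capitals mark matches to the 3 motifs described after them.
Sult1a1 promoter, GRCm38.p6 chr7:126676369-126676668, minus strand: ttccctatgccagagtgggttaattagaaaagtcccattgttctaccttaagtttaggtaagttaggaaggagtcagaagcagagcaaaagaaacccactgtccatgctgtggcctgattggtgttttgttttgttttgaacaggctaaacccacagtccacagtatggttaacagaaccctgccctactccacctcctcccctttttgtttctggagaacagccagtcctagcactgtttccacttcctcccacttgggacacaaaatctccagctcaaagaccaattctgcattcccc
Sult1c2 promoter, GRCm38.p6 chr17:53845909-53846208, minus strand: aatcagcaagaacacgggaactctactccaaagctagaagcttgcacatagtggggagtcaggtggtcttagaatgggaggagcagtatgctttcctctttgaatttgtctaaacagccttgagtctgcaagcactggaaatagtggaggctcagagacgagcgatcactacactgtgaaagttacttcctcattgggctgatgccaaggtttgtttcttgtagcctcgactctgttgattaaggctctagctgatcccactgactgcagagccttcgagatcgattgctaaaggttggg
Gstm7 promoter, GRCm38.p6 chr3:107931565-107931864, minus strand: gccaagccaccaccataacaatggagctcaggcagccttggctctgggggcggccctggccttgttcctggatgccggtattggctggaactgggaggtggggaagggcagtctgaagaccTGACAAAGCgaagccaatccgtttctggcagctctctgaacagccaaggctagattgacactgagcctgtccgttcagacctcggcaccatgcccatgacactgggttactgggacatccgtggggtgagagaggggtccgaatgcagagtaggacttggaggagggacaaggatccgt
Gstt1 promoter, GRCm38.p6 chr10:75797682-75797981, minus strand: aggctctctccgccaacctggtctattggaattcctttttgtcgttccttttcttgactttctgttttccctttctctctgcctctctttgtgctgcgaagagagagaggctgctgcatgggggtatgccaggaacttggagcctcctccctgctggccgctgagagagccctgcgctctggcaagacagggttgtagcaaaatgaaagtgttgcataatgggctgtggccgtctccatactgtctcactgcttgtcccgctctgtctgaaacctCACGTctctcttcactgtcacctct

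The motifs searched on both strands were GCGTG, the core of the aryl hydrocarbon response element, ACGTG, a core of the hypoxia response element, and TGACNNNGC, a core of the antioxidant response element. GCGTG and ACGTG can overlap each other only on the same strand, where the last G of ACGTG can begin GCGTG. In these 4 windows ACGTG occurred in that of Gstt1 and TGACNNNGC in that of Gstm7. No match was found in those of Sult1a1 and Sult1c2. Gstm7 has another listed window, without a match to any of the motifs, and the window with the match is the one shown. RefSeq promoters were listed for 33 of the 36 genes that reached log2 6, as 48 windows. GCGTG was in 16 of the 48 windows (33.3%), against 32.4% of all 32851 listed promoters. ACGTG was in 8 windows (16.7%, against 19.6%) and TGACNNNGC in 5 windows (10.4%, against 12.4%). The shares of the members lay near those of all promoters for each motif. A match is a description of letters and not of binding.

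Before the conjugation enzymes, the labels and sample makeup were checked. Vhl, the targeted gene, read 7.03 in the VhlΔIE array against 8.40 in the VhlF/F array, and 6.56 in the VhlΔIE/Apcmin/+ array against 8.17 in the VhlF/F/Apcmin/+ array. Xist, which is expressed from the inactive X chromosome of females, read 5.58 in the VhlΔIE array against 11.37 in the VhlF/F array, and 6.25 in the VhlΔIE/Apcmin/+ array against 11.83 in the VhlF/F/Apcmin/+ array. Eif2s3y, which lies on the Y chromosome, read 8.78 in the VhlΔIE array against 8.58 in the VhlF/F array, and 8.80 in the VhlΔIE/Apcmin/+ array against 7.27 in the VhlF/F/Apcmin/+ array. Both Vhl-deleted arrays were thus low in Xist and both floxed arrays high, while Eif2s3y was above log2 7 in all 4 arrays and lowest in VhlF/F/Apcmin/+. High Xist and floxed Vhl went together in these arrays, so the 2 cannot be told apart. Of 14 hepatocyte markers, 6 reached log2 6 in VhlΔIE against 14 in VhlF/F, and 5 in VhlΔIE/Apcmin/+ against 3 in VhlF/F/Apcmin/+. The summed log2 levels of the hepatocyte list were 82.5 in VhlΔIE against 121.8 in VhlF/F, and 80.1 in VhlΔIE/Apcmin/+ against 77.7 in VhlF/F/Apcmin/+. All 8 colonocyte markers lay between 12.29 and 13.95 in the 4 arrays. Their median Vhl difference was -0.20 without and -0.18 with the Apc mutation, with 2 and 3 of the 8 above 0. Guca2a differed by -1.34 without Min and -0.11 with Min. Slc26a3 differed by -0.69 without Min and -0.76 with Min, and Car4 by -0.63 without Min and -0.72 with Min. The 5 smooth muscle markers had medians of -0.62 and -0.47, and the 5 endothelial markers medians of 1.18 and 1.27. In scraped tissue, fewer cells of a type and less RNA per cell cannot be told apart.

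**Figure D1:**
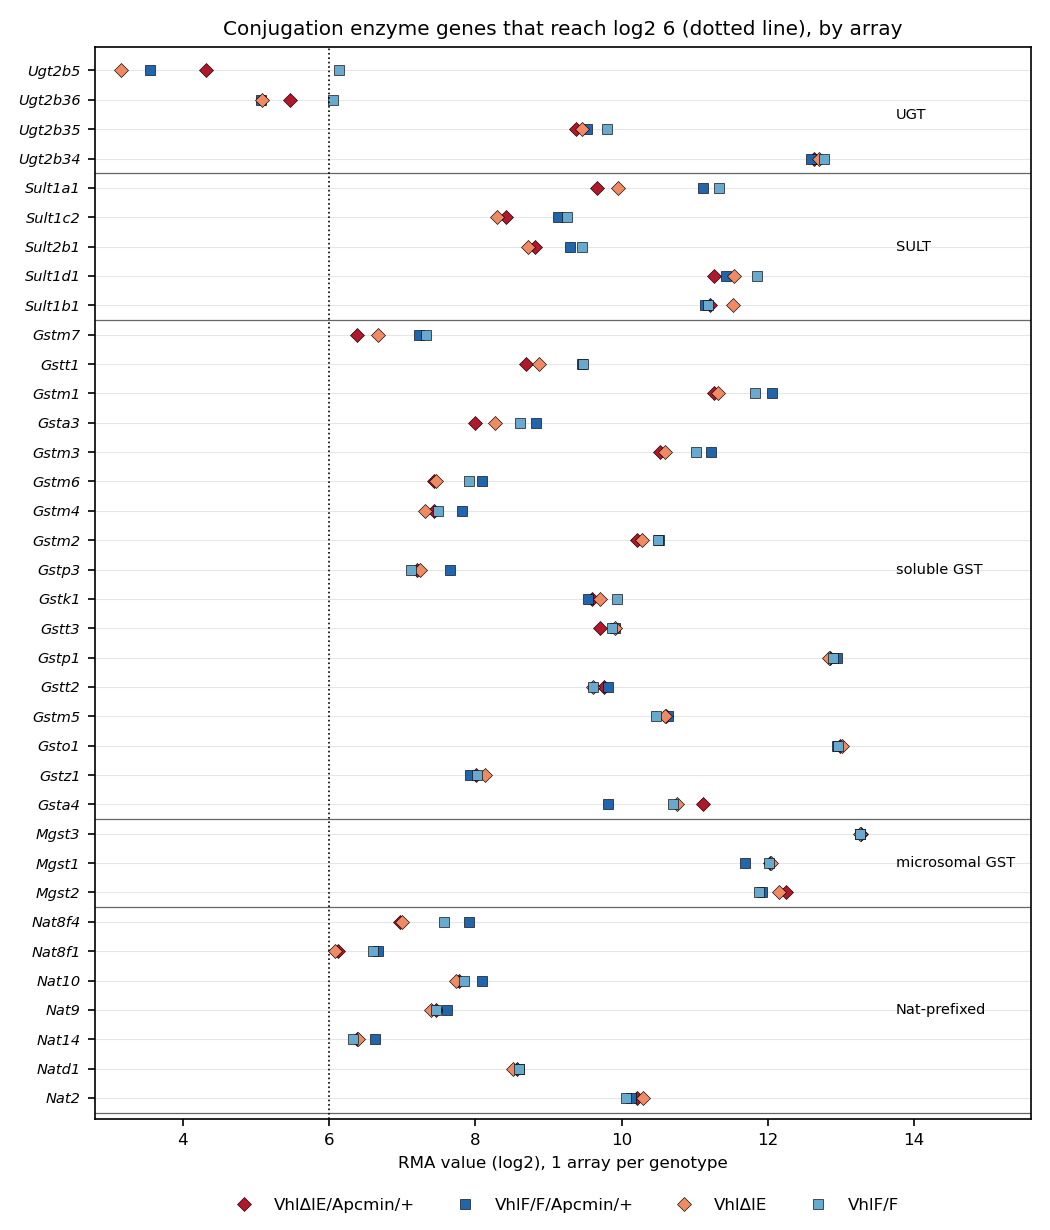
RMA log2 values of the 36 conjugation enzyme genes that reached log2 6, 1 point per array. Diamonds are Vhl-deleted arrays and squares floxed arrays, darker with the Apc mutation, and within a class genes run from the lowest to the highest mean Vhl difference. Sult1a1, Sult1c2, Sult2b1 and most mu-class Gstm genes have both diamonds left of both squares, while Ugt2b5 and Ugt2b36 reach the dotted line in the VhlF/F array alone.

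Across the 36 genes, Vhl deletion went with small differences for most. Without the Apc mutation 2 members were at least 2-fold lower, Sult1a1 and Ugt2b5, in a comparison where 1.6% of all genes were called lower. Ugt2b5 passed the floor only through the VhlF/F array, against which it is compared, so its call is not independent of the floor. Ugt2b36 passed in the same way and, at -0.96, was not called. Over the 34 members above the floor in every array the count was 1. No member was at least 2-fold higher, where 2.27% of all genes were. With the Apc mutation Sult1a1 was lower and Gsta4 higher, against 1.52% and 2.82% of all genes. Sult1a1 was thus lower in both, as were 0.733% of all genes. The median difference of the 36 genes was -0.14 without and -0.16 with the Apc mutation, beside -0.02 and -0.02 over all genes. The sign was negative in both backgrounds for 20 members (55.6%, against 41.4% of all genes) and positive in both for 8.

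The arrays could also be ordered by Vhl status. For 17 of the 36 genes both Vhl-deleted arrays lay below both floxed arrays (47.2%, against 33.4% of all genes). For 7 genes both lay above (19.4%, against 27.7% of all genes), and the other 12 overlapped. Separation of this kind was common between these arrays and includes very small gaps, down to that of Mgst3, whose 4 values span 0.01. At least 1.5-fold in both backgrounds, 4 members were lower, where 2.73% of all genes were, and 0 were higher, where 4.42% were. In 11 of the 36 genes the 4 arrays spanned less than 0.25.

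**Figure D2:**
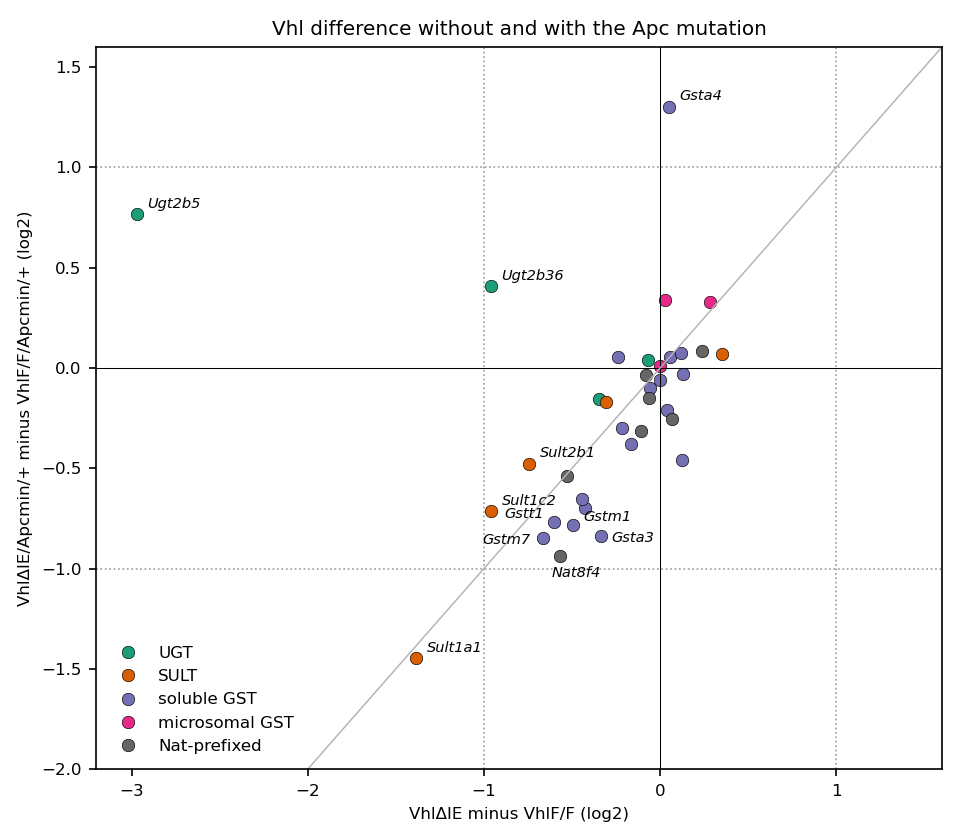
Vhl difference of each of the 36 genes without the Apc mutation (x axis, log2) and with it (y axis, log2), coloured by enzyme class. The diagonal marks equal differences and dotted lines mark a 2-fold difference. Sult1a1 lies past both lower lines, Gsta4 past the upper line on the y axis alone, and Ugt2b5 past the lower line on the x axis alone.

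The sulfotransferases held the lowest member of the set in both backgrounds among genes above log2 6 in every array. Of 13 measured, 5 reached log2 6. Sult1a1 sulfates phenols, including dietary and drug phenols. It read 9.95 in the VhlΔIE array against 11.34 in the VhlF/F array, and 9.66 in the VhlΔIE/Apcmin/+ array against 11.11 in the VhlF/F/Apcmin/+ array. The differences were -1.38 without Min and -1.45 with Min, or 2.61-fold and 2.73-fold lower. The higher of the Vhl-deleted arrays lay 1.16 below the lower of the floxed arrays. Sult1a1 is measured by a single probe set here, whose suffix (_a_at) marks probes shared by several transcripts of a gene, so it has no value once probe sets with the suffixes _s_at, _x_at and _a_at are left out.

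Sult1c2, which belongs to a subfamily that acts on small phenols and hydroxyarylamines, read 8.29 in the VhlΔIE array against 9.25 in the VhlF/F array, and 8.41 in the VhlΔIE/Apcmin/+ array against 9.13 in the VhlF/F/Apcmin/+ array. Both Vhl-deleted arrays lay below both floxed arrays, with differences of -0.96 without Min and -0.71 with Min. Sult2b1 sulfates cholesterol and other hydroxysteroids. It read 8.72 in the VhlΔIE array against 9.46 in the VhlF/F array, and 8.82 in the VhlΔIE/Apcmin/+ array against 9.29 in the VhlF/F/Apcmin/+ array, and the groups again did not overlap. Its differences were -0.74 without Min and -0.48 with Min.

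The other expressed sulfotransferases differed less. Sult1d1, known in the mouse for sulfating catecholamines and phenols, read 11.54 in the VhlΔIE array against 11.85 in the VhlF/F array, and 11.26 in the VhlΔIE/Apcmin/+ array against 11.43 in the VhlF/F/Apcmin/+ array. The VhlΔIE array lay above the VhlF/F/Apcmin/+ array, so the groups overlapped. Its 2 probe sets were lower in both backgrounds, with differences of -0.42 to -0.31 without and -0.30 to -0.17 with the Apc mutation. Sult1b1, a chromosomal neighbour of Sult1d1 whose enzyme sulfates thyroid hormones and phenols, read 11.53 in the VhlΔIE array against 11.18 in the VhlF/F array, and 11.21 in the VhlΔIE/Apcmin/+ array against 11.14 in the VhlF/F/Apcmin/+ array. Its differences were 0.35 without Min and 0.07 with Min, the one sulfotransferase with both above 0 among the 5 that reached log2 6. As a class the 5 genes had median differences of -0.74 without and -0.48 with the Apc mutation, with 4 of 5 below 0 in each. The other 8 sulfotransferases, Sult1c1, Sult1e1, Sult2a2, Sult2a8, Sult3a1, Sult4a1, Sult5a1 and Sult6b1, did not reach log2 6.

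Among soluble glutathione transferases, 17 of 20 reached log2 6. The mu class, whose members conjugate a wide range of electrophiles, was measured by 7 genes that lie close together on chromosome 3. Gstm1 read 11.33 in the VhlΔIE array against 11.82 in the VhlF/F array, and 11.27 in the VhlΔIE/Apcmin/+ array against 12.05 in the VhlF/F/Apcmin/+ array. Both Vhl-deleted arrays lay below both floxed arrays. The differences were -0.49 without Min and -0.78 with Min, and all 4 of its probe sets were lower in both backgrounds. They ranged over -0.56 to -0.42 without and -0.78 to -0.36 with the Apc mutation.

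Gstm7 showed the largest mean difference of the class. It read 6.67 in the VhlΔIE array against 7.33 in the VhlF/F array, and 6.38 in the VhlΔIE/Apcmin/+ array against 7.23 in the VhlF/F/Apcmin/+ array, with differences of -0.67 without Min and -0.85 with Min. Its other probe set, under log2 6 in every array, differed by only -0.05 without Min and -0.07 with Min. Gstm3 differed by -0.42 without Min and -0.70 with Min, and Gstm6 by -0.45 without Min and -0.65 with Min. Gstm2 differed by -0.22 without Min and -0.30 with Min, and Gstm4 by -0.17 without Min and -0.38 with Min. For these 6 genes, Gstm1 included, both Vhl-deleted arrays lay below both floxed arrays. Gstm5 was the exception, at 10.60 (VhlΔIE) against 10.47 (VhlF/F), and 10.60 (VhlΔIE/Apcmin/+) against 10.63 (VhlF/F/Apcmin/+). The class medians were -0.42 without and -0.65 with the Apc mutation. Mu-class genes have similar sequences, so their probes may share transcripts and the 7 genes are not 7 separate measurements.

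The alpha class split. Gsta4 conjugates hydroxynonenal, an aldehyde formed when lipids are oxidised, and read 10.76 in the VhlΔIE array against 10.71 in the VhlF/F array, and 11.12 in the VhlΔIE/Apcmin/+ array against 9.82 in the VhlF/F/Apcmin/+ array. The VhlF/F/Apcmin/+ array was the low one, and the other 3 read 10.71 to 11.12. The Vhl difference was 0.05 without the Apc mutation and 1.30, or 2.47-fold, with it. The 2 differences lay 1.25 apart, a gap of at least 1 in either direction that 1.57% of all genes showed. Gsta4 is measured by a single probe set. Gsta3, known in the mouse for detoxifying aflatoxin epoxide, went the other way. It read 8.28 in the VhlΔIE array against 8.61 in the VhlF/F array, and 8.0 in the VhlΔIE/Apcmin/+ array against 8.84 in the VhlF/F/Apcmin/+ array, with differences of -0.34 without Min and -0.84 with Min and both of its probe sets lower in both backgrounds.

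Gstt1 of the theta class, which acts on small halogenated compounds, read 8.86 in the VhlΔIE array against 9.47 in the VhlF/F array, and 8.69 in the VhlΔIE/Apcmin/+ array against 9.46 in the VhlF/F/Apcmin/+ array. Its differences were -0.60 without Min and -0.77 with Min, and the Vhl-deleted arrays lay at least 0.59 below the floxed ones. Its neighbours on chromosome 10 did not share this. Gstt2 differed by 0.00 without Min and -0.06 with Min, and Gstt3 by 0.04 without Min and -0.21 with Min.

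Gstp1, Gsto1 and Gstz1 varied little over the arrays. Gstp1, the main pi-class enzyme, read 12.84 in the VhlΔIE array against 12.89 in the VhlF/F array, and 12.85 in the VhlΔIE/Apcmin/+ array against 12.95 in the VhlF/F/Apcmin/+ array, a span of 0.11. Gsto1, an omega-class enzyme that reduces dehydroascorbate, spanned 0.08, and its other probe set differed by 0.17 without Min and -0.16 with Min. Gstz1, the zeta-class enzyme of tyrosine breakdown, spanned 0.21. Gstk1, found in mitochondria and peroxisomes, differed by -0.24 without Min and 0.06 with Min. Gstp3 read 7.25 (VhlΔIE) against 7.12 (VhlF/F), and 7.20 (VhlΔIE/Apcmin/+) against 7.66 (VhlF/F/Apcmin/+), and was highest in VhlF/F/Apcmin/+. Over the 17 genes the median was -0.17 without and -0.30 with the Apc mutation, with 11 and 13 genes below 0. Gsto2 and Gstt4 did not reach log2 6, nor did the single-symbol probe set of Gsta2. A further probe set that Gsta2 shares with Gsta1 and Gm3776 read 9.91 to 10.69 and was outside the comparisons.

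The 3 microsomal glutathione transferases, membrane enzymes that also reduce lipid peroxides or make leukotriene conjugates, all reached log2 6 in every array. Mgst2 read 12.16 in the VhlΔIE array against 11.88 in the VhlF/F array, and 12.25 in the VhlΔIE/Apcmin/+ array against 11.92 in the VhlF/F/Apcmin/+ array. Its differences were 0.28 without Min and 0.33 with Min, with both Vhl-deleted arrays above both floxed arrays. Mgst1 differed by 0.03 without Min and 0.34 with Min. It read 12.01 to 12.04 in the Vhl-deleted and VhlF/F arrays and 11.69 in VhlF/F/Apcmin/+, so its difference with the Apc mutation came with a low VhlF/F/Apcmin/+ value, as for Gsta4. The other Mgst1 probe set, under log2 6 in every array, differed by -0.05 without Min and -0.49 with Min. Mgst3 read 13.26 to 13.27 throughout. The class medians were 0.03 and 0.33.

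**Figure D3:**
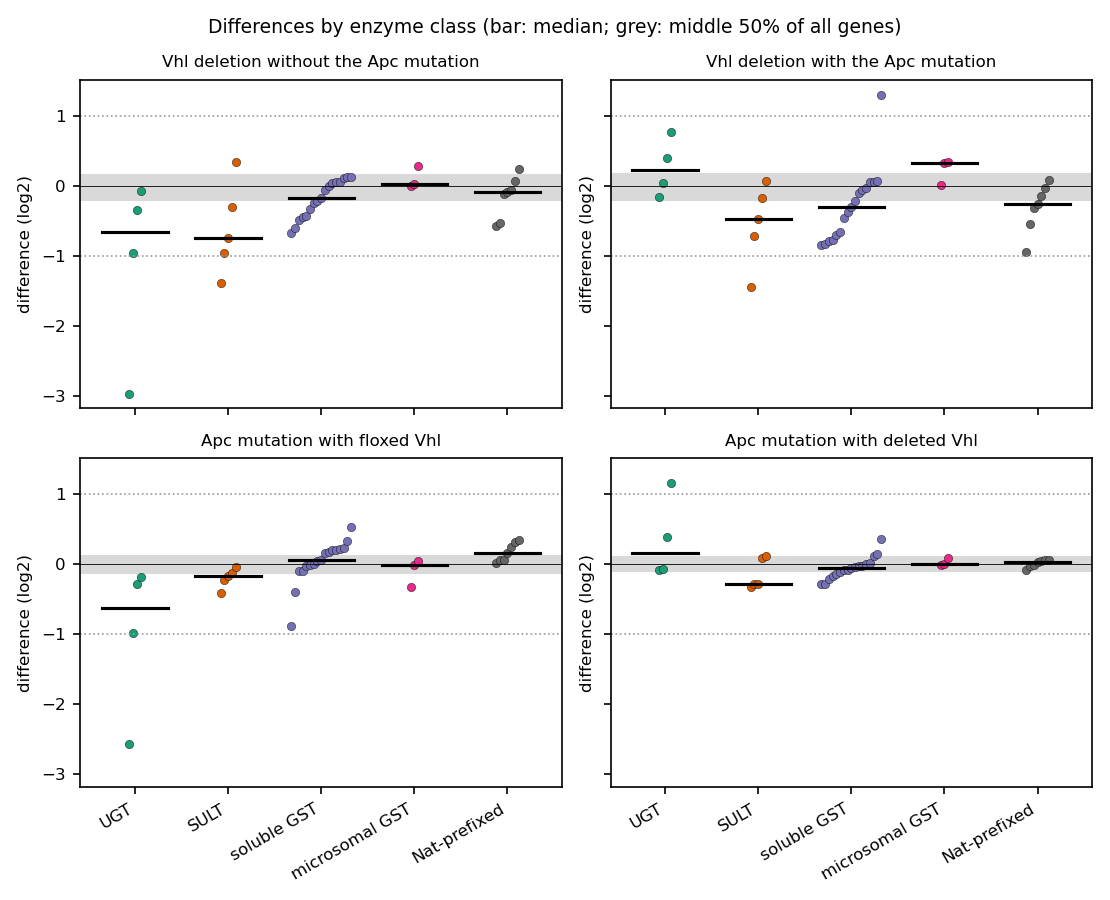
Log2 differences of the 36 genes by enzyme class in the 4 comparisons, 1 point per gene, with the class median as a bar and the middle quartiles of all 11871 genes in grey. The sulfotransferase median lies below the grey band for both Vhl comparisons. The glucuronosyltransferase median, which covers Ugt2 genes only, changes side between them.

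Among the UDP-glucuronosyltransferases, Ugt2b34 and Ugt2b35 were above log2 6 in every array, and Ugt2b5 and Ugt2b36 in the VhlF/F array alone. Of 8 measured, 4 reached log2 6. All 8 are Ugt2 genes. The probe sets of the Ugt1 locus carry several gene symbols, so no Ugt1 gene entered the class or its medians. Those shared probe sets read 11.82 to 13.68 over the 4 arrays, with Vhl differences between -0.01 and 0.17. Ugt2b34 read 12.70 in the VhlΔIE array against 12.77 in the VhlF/F array, and 12.63 in the VhlΔIE/Apcmin/+ array against 12.59 in the VhlF/F/Apcmin/+ array, a span of 0.18. Ugt2b35 read 9.46 in the VhlΔIE array against 9.81 in the VhlF/F array, and 9.37 in the VhlΔIE/Apcmin/+ array against 9.53 in the VhlF/F/Apcmin/+ array. Both Vhl-deleted arrays lay below both floxed arrays for Ugt2b35, with differences of -0.35 without Min and -0.15 with Min.

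Ugt2b5 read 3.16 in the VhlΔIE array against 6.13 in the VhlF/F array, and 4.32 in the VhlΔIE/Apcmin/+ array against 3.55 in the VhlF/F/Apcmin/+ array. The VhlF/F array stood alone above log2 6. Ugt2b36 read 5.09 in the VhlΔIE array against 6.05 in the VhlF/F array, and 5.47 in the VhlΔIE/Apcmin/+ array against 5.06 in the VhlF/F/Apcmin/+ array, again with the VhlF/F array highest. Ugt2b5 differed by -2.97 without Min and 0.77 with Min, and Ugt2b36 by -0.96 without Min and 0.41 with Min. Both genes entered the set only through the VhlF/F array, in which all 14 hepatocyte markers reached log2 6. Alb, the plasma protein albumin, read 7.24 in the VhlΔIE array against 11.53 in the VhlF/F array, and 7.08 in the VhlΔIE/Apcmin/+ array against 6.10 in the VhlF/F/Apcmin/+ array. The part of hepatocyte RNA in the Ugt2b5 and Ugt2b36 differences was not tested. With either gene's VhlF/F value set aside, the other 3 arrays lay below log2 6. The class medians, -0.65 without and 0.22 with the Apc mutation, rest on these genes. Over Ugt2b34 and Ugt2b35 alone the medians were -0.21 and -0.06.

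Just inside the floor of log2 6 lay Ugt2b36 with a highest value of 6.05 and Ugt2b5 with 6.13. Just outside lay Nat8 with a highest value of 5.97, Ugt2b1 with 5.90 and Nat8l with 5.87. Ugt2b1 read 3.68 (VhlΔIE) against 5.90 (VhlF/F), and 3.58 (VhlΔIE/Apcmin/+) against 3.70 (VhlF/F/Apcmin/+). Sult2a8 read 3.47 (VhlΔIE) against 4.99 (VhlF/F), and 3.41 (VhlΔIE/Apcmin/+) against 3.40 (VhlF/F/Apcmin/+). In Ugt2b1 and Sult2a8 the VhlF/F array was again the high one. Ugt2a3, Ugt2b37 and Ugt2b38 read at most 3.84 in any array.

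**Figure D4:**
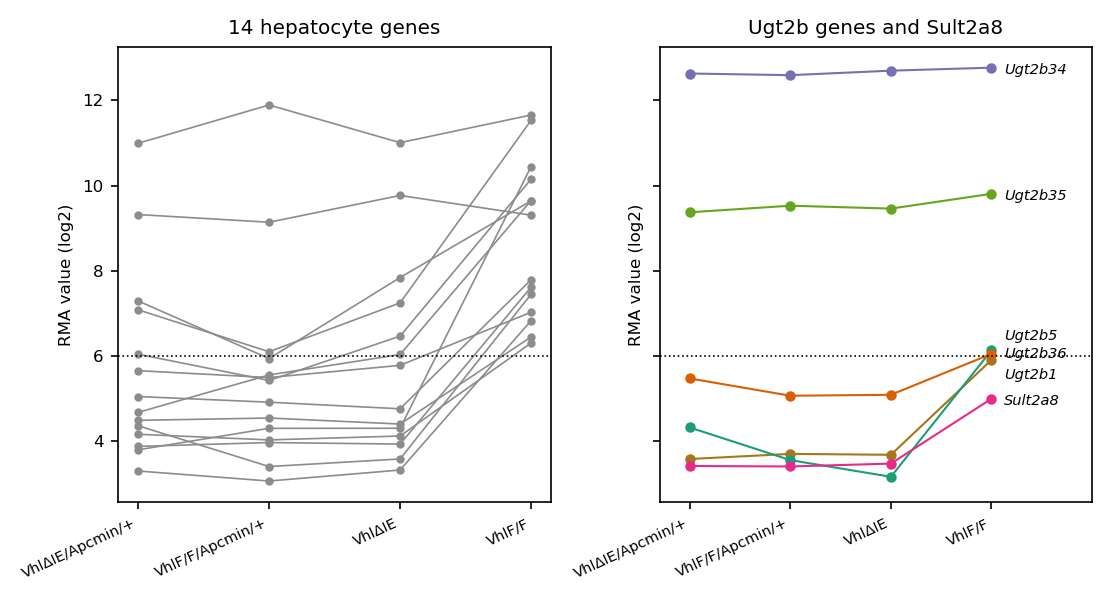
RMA log2 values in the 4 arrays of the 14 hepatocyte genes (left) and of Ugt2b genes and Sult2a8 (right), with a line joining the values of each gene. Most hepatocyte genes and Ugt2b1, Ugt2b5, Ugt2b36 and Sult2a8 are highest in the VhlF/F array. Ugt2b34 and Ugt2b35 are also highest there, at 12.77 and 9.81, and lie above log2 9 in every array.

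Of 14 genes whose symbol starts with Nat, 7 reached log2 6. Nat2 was the one arylamine N-acetyltransferase among them. It read 10.30 in the VhlΔIE array against 10.06 in the VhlF/F array, and 10.21 in the VhlΔIE/Apcmin/+ array against 10.12 in the VhlF/F/Apcmin/+ array, a span of 0.24, and Nat1 and Nat3 did not reach log2 6. Nat8f4 and Nat8f1, from the Nat8 cluster on chromosome 6, were the lower ones. Nat8f4 read 7.0 in the VhlΔIE array against 7.57 in the VhlF/F array, and 6.97 in the VhlΔIE/Apcmin/+ array against 7.91 in the VhlF/F/Apcmin/+ array, with differences of -0.57 without Min and -0.94 with Min. Its 3 probe sets were all lower, over -0.75 to -0.40 without and -1.03 to -0.11 with the Apc mutation. Nat8f1 differed by -0.53 without Min and -0.54 with Min. The other Nat8f1 probe set, under log2 6 in every array, differed by 0.05 without Min and -0.26 with Min. By the probe sets used for the 2 genes, the Vhl-deleted arrays lay below the floxed ones.

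Nat10, an RNA acetyltransferase, differed by -0.11 without Min and -0.32 with Min. Nat14, Nat9 and Natd1 had Vhl differences between -0.26 and 0.07. The medians of the 7 Nat genes were -0.08 without and -0.26 with the Apc mutation. Nat8, Nat8f2, Nat8f3, Nat8f5 and Nat8l did not reach log2 6.

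For the Apc mutation 1 member was called in each Vhl background, Ugt2b5 both times. With floxed Vhl, Ugt2b5 at -2.58 was the one member at least 2-fold lower, where 0.901% of all genes were, and it rests on the VhlF/F array. No member was at least 2-fold higher, where 0.118% of all genes were. Ugt2b36 at -0.98 and Gsta4 at -0.89 came next. Gstp3 at 0.54 was the highest member. With deleted Vhl, Ugt2b5 at 1.16 was the one member at least 2-fold higher, where 0.202% of all genes were, with both values under log2 6. No member was at least 2-fold lower, where 0.118% of all genes were.

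Without Ugt2b5 and Ugt2b36, the differences for the Apc mutation with deleted Vhl lay between -0.32 for Sult1b1 and 0.36 for Gsta4. The median over the 36 genes was 0.01 with floxed and -0.03 with deleted Vhl. All 5 sulfotransferases were lower in VhlF/F/Apcmin/+ than in VhlF/F, with a median of -0.17 and values down to -0.42 for Sult1d1. All 7 Nat genes were higher in that comparison, with a median of 0.15. Over all genes 6029 were higher and 5832 lower of 11871 there. The Apc comparisons share an array with each Vhl comparison, so the VhlF/F and VhlF/F/Apcmin/+ values above enter both. Small intestinal enterocyte markers were also lower in VhlF/F/Apcmin/+ than in VhlF/F, with 5 of 8 at least 2-fold lower and a median of -1.40. Their summed log2 level over 9 genes was 70.5 in VhlF/F/Apcmin/+ and 81.5 in VhlF/F. Their part in the Gsta4 difference was not tested. The 2 adipocyte markers measured had a median of -1.01 in that comparison.

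The genes that supply the conjugated groups were read next. For sulfation and glucuronidation, 9 of 11 measured genes reached log2 6, with median Vhl differences of 0.00 without and 0.10 with the Apc mutation. Slc26a2, the sulfate transporter that brings sulfate into colonocytes, was the one member at least 2-fold apart. It read 11.49 in the VhlΔIE array against 13.13 in the VhlF/F array, and 11.59 in the VhlΔIE/Apcmin/+ array against 13.26 in the VhlF/F/Apcmin/+ array. The differences were -1.64 without Min and -1.68 with Min, with both Vhl-deleted arrays below both floxed arrays, as for Sult1a1. The synthases that make PAPS from sulfate, and Ugdh, were named after their values were seen. Papss2 differed by 0.16 without Min and 0.37 with Min, and Papss1 by -0.08 without Min and -0.23 with Min. Ugp2, which makes UDP-glucose, differed by 0.40 without Min and 0.42 with Min. Ugdh, which oxidises UDP-glucose to UDP-glucuronate, differed by -0.01 without Min and -0.01 with Min. Slc35d1, which carries UDP-glucuronate into the endoplasmic reticulum, differed by 0.00 without Min and 0.39 with Min.

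For glutathione, 15 of 17 measured genes reached log2 6, with medians of -0.10 and -0.01. Oplah, the oxoprolinase that returns glutamate to glutathione synthesis, was at least 2-fold lower in both backgrounds. It read 7.29 in the VhlΔIE array against 8.45 in the VhlF/F array, and 7.39 in the VhlΔIE/Apcmin/+ array against 8.52 in the VhlF/F/Apcmin/+ array. Chac2, which breaks down glutathione, differed by 0.85 without Min and 0.90 with Min. Dpep1, which cleaves the cysteinyl-glycine bond left by glutathione breakdown, differed by -0.94 without Min and 0.44 with Min. The 2 subunits of glutamate-cysteine ligase, named after their values were seen, lay on opposite sides. The catalytic subunit Gclc read 9.97 in the VhlΔIE array against 10.55 in the VhlF/F array, and 9.91 in the VhlΔIE/Apcmin/+ array against 10.58 in the VhlF/F/Apcmin/+ array. The modifier subunit Gclm read 11.87 in the VhlΔIE array against 11.18 in the VhlF/F array, and 11.97 in the VhlΔIE/Apcmin/+ array against 11.26 in the VhlF/F/Apcmin/+ array. Their differences were -0.58 without Min and -0.67 with Min for Gclc, and 0.69 without Min and 0.71 with Min for Gclm.

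**Figure D5:**
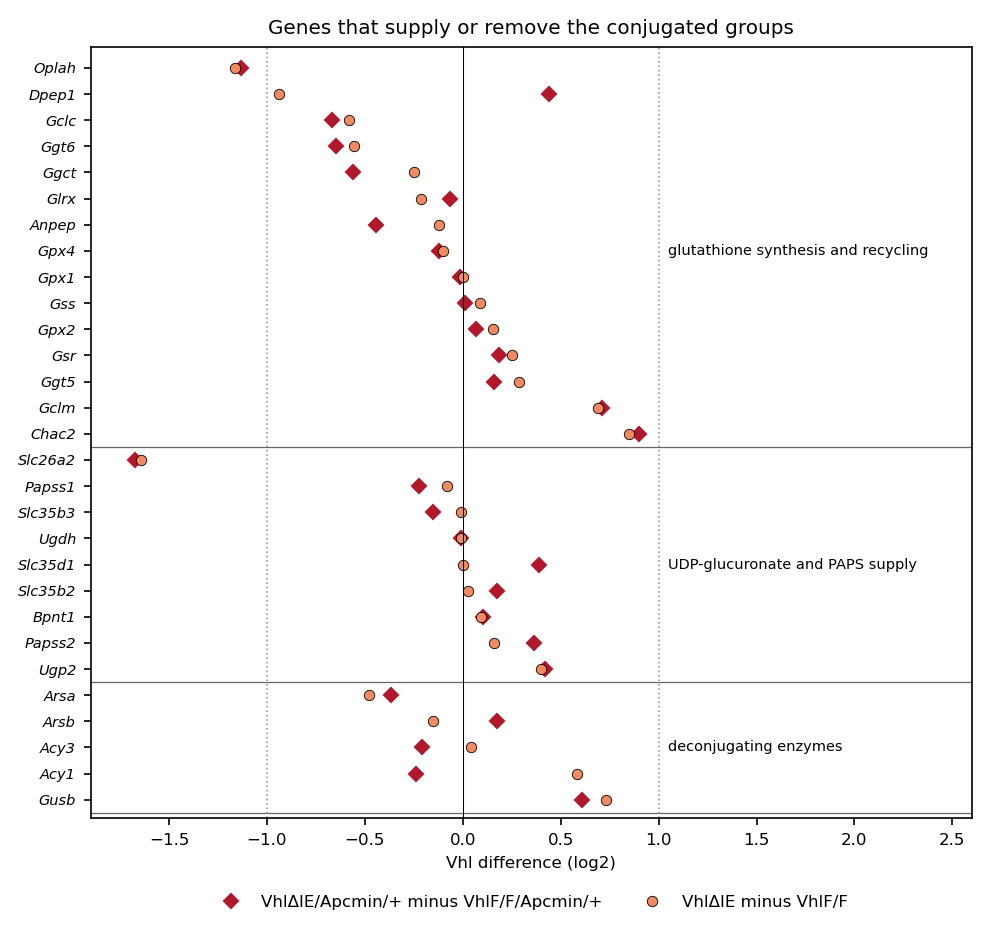
Vhl differences (log2) of genes that make or recycle glutathione, supply UDP-glucuronate and PAPS, or remove conjugated groups, with the Apc mutation (diamonds) and without it (circles). Slc26a2 and Oplah lie left of the 2-fold line in both backgrounds, and Gclc and Gclm lie on opposite sides of 0.

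Enzymes that remove conjugated groups, 5 of 5 of which reached log2 6, had medians of 0.04 and -0.21. Gusb, the lysosomal beta-glucuronidase, differed by 0.73 without Min and 0.61 with Min. Arsa, arylsulfatase A, differed by -0.48 without Min and -0.36 with Min. Acy1, which deacetylates N-acetyl amino acids, differed by 0.58 without Min and -0.24 with Min. A list of other conjugation enzymes also held the epoxide hydrolases Ephx1 and Ephx2, which do not conjugate. Of its genes, 8 of 12 measured reached log2 6, with medians of 0.03 and -0.19. Inmt, an indolethylamine methyltransferase, differed by -1.09 without Min and -0.75 with Min. Ephx1, microsomal epoxide hydrolase, differed by -0.64 without Min and -0.50 with Min, and Tpmt, thiopurine methyltransferase, by 0.02 without Min and -0.36 with Min.

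NRF2, encoded by Nfe2l2, is a transcription factor known to induce many glutathione transferases. Of its known targets outside the genes taken by symbol, 17 of 18 measured reached log2 6. Some of them, such as Ephx1 and Gclc, are also on the lists above. Their median Vhl differences were 0.15 and 0.16, with 10 and 11 genes above 0. Me1, malic enzyme, differed by 0.73 without Min and 1.39 with Min. Hmox1, heme oxygenase, differed by 1.07 without Min and 0.81 with Min, and the carboxylesterase Ces1g by -0.17 without Min and 1.35 with Min. Ces1g read 6.65 to 6.84 in the Vhl-deleted and VhlF/F arrays and 5.49 in VhlF/F/Apcmin/+. The 17 soluble glutathione transferases had medians of -0.17 without Min and -0.30 with Min, with 6 and 4 genes above 0. The probe set shared by Gsta1, Gsta2 and Gm3776, outside that class, differed by 0.77 without Min and 0.51 with Min. A link of these values to NRF2 was not tested.

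Of the targets of the aryl hydrocarbon receptor, another inducer of conjugation enzymes, 2 of 7 measured reached log2 6. Tiparp differed by 0.80 without Min and 0.83 with Min, and Nqo1, which NRF2 also induces, by 0.50 without Min and 0.63 with Min. Regulators of these enzymes, 17 of 17 of which reached log2 6, had medians of -0.24 and -0.21, with no member at least 2-fold apart. Vdr, the vitamin D receptor, differed by -0.58 without Min and -0.85 with Min. Pparg differed by 0.63 without Min and 0.84 with Min, and Keap1, which marks NRF2 for degradation, by 0.47 without Min and 0.75 with Min. Nfe2l2 and Ahr, named after their values were seen, differed by -0.22 without Min and -0.04 with Min for Nfe2l2, and -0.01 without Min and -0.11 with Min for Ahr.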

How the data were processed

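RNA of colon mucosal scrapings was hybridised to 4 arrays, 1 for each genotype. Per the submitters' processing notes the authors used affy and RMA, and they deposited a log2 value for each of 45101 probe sets. RMA subtracts background, quantile normalizes arrays and combines the probes into 1 value. Tool versions, and the set of arrays normalized jointly, are not given in the sources used. Quantile normalization would hide a shift of the whole transcriptome, and low signals understate folds. Array medians were 6.05 in VhlΔIE, 6.06 in VhlF/F, 6.07 in VhlΔIE/Apcmin/+ and 6.06 in VhlF/F/Apcmin/+.

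Symbols were those of GEO's platform annotation, some of them possibly outdated. It gave 34958 probe sets 1 symbol and 932 several, and left 9211 unlisted. All 58 member genes had an Entrez identifier in the RefSeq table of GRCm38.p6, used for names and gene order. The 58 genes had 78 probe sets, and 16 genes had more than 1. Members reaching log2 6 were compared in 4 comparisons, with 2-fold as the call and all genes above the floor as background. The number of arrays limits the precision. Every member above the floor could be named, and from each gene list the 3 members with the largest Vhl difference and any at least 2-fold apart in both Vhl comparisons, beside others marked as named after their values were seen. Members and gene lists were chosen with earlier results of these data known. Alternatives were a floor of 7, no floor, raising values under 6 to 6, the mean over probe sets, leaving out probe sets with the suffixes _s_at, _x_at and _a_at, cyclic loess, and a 1.5-fold call. Another control array, and only members above the floor in every array, were chosen after seeing the data. The counting was tested on simulated arrays. Cyclic loess was run with limma 3.58.1 in R 4.3.3, and the rest with pandas 2.3.3 and numpy 2.4.6 in Python 3.11.15.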

Additional observations from a re-analysis of the deposited data

Results flagged for a closer look

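In 3 genes the comparisons of a kind went in opposite directions and lay at least 1 apart, with 1 array for each genotype, and the difference between them was not tested. Leaving direction aside, the 2 comparisons of a kind lay at least 1 apart in 3 of the 36 members and 1.57% of all genes. The Vhl and Apc comparisons of a gene use the same 4 arrays. Their gaps are equal by arithmetic, so a gene listed for both kinds shows the same gap. Ugt2b5 and Ugt2b36 passed the floor only through the VhlF/F array, and their values in the other 3 arrays lay under log2 6. For the Apc mutation Gsta4 differed by -0.89 with floxed and 0.36 with deleted Vhl. Ugt2b36 differed by -0.96 without Min and 0.41 with Min for Vhl deletion, and by -0.98 with floxed and 0.38 with deleted Vhl for the Apc mutation. Ugt2b5 differed by -2.97 without Min and 0.77 with Min for Vhl deletion, and by -2.58 with floxed and 1.16 with deleted Vhl for the Apc mutation.

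Probe sets that the annotation assigns to several conjugation enzyme genes were outside the comparisons, and 4 of them reached log2 6. The probe set shared by Gsta1, Gsta2 and Gm3776 read 10.69 in VhlΔIE against 9.91 in VhlF/F, and 10.59 in VhlΔIE/Apcmin/+ against 10.08 in VhlF/F/Apcmin/+. It differed by 0.77 and 0.51 with Vhl deletion, and both Vhl-deleted arrays lay above both floxed arrays. The 3 probe sets shared by the 8 genes of the Ugt1 locus had highest values of 13.68, 12.25 and 11.93, all in the VhlΔIE/Apcmin/+ array. Their Vhl differences lay between -0.01 and 0.17.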

How the results depend on the processing

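No paired analysis was possible because each genotype has 1 array. The 20 class medians were recomputed under 7 settings, and the 5 for Vhl deletion without the Apc mutation also with another control array. Where 2-fold calls or medians changed, the values were these, and a median that moved by under 0.2 was taken as unchanged. Of 145 medians, 127 were unchanged and 18 moved.

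Without the Apc mutation, the count of lower members for Vhl deletion, 2 as reported, was 1 at a floor of log2 7, with values under 6 raised to 6, without suffixed probe sets (_s_at, _x_at and _a_at), with the VhlF/F/Apcmin/+ array as control, and for members above the floor in every array. It was 4 with no floor and 7 at 1.5-fold. With the Apc mutation it was 0 without suffixed probe sets, since the Sult1a1 probe set has such a suffix, and 9 at 1.5-fold, where the count of higher members was 2. For the Apc mutation with floxed Vhl, the count of lower members was 0 at a floor of 7, with values raised to 6 and for members above the floor in every array, 2 with cyclic loess, and 3 with no floor and at 1.5-fold. With deleted Vhl, the count of higher members was 0 at a floor of 7, with values raised to 6, and for members above the floor in every array.

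The glucuronosyltransferase medians moved most. At a floor of 7, and for members above the floor in every array, they were -0.21 without Min and -0.058 with Min for Vhl deletion, and -0.23 with floxed and -0.077 with deleted Vhl for the Apc mutation. With values raised to 6 they were -0.10, 0.00 and -0.15 for the first 3 of these. With the other control array the first was -0.023, and the microsomal median 0.24. With no floor the sulfotransferase medians were -0.12 and -0.10 for Vhl deletion, and 0.073 for the Apc mutation with deleted Vhl. Without suffixed probe sets the sulfotransferase median was -0.52 without the Apc mutation. With the mean over probe sets the microsomal median with the Apc mutation was 0.028.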
